A study of Mus musculus with 10 samples.

Results

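RNA from femoral cells of KOKI mice that lack RAG2 was compared with RNA from control mice that lack RAG2 and gamma c. The comparison was taken from the sample labels and covers 4 of the 10 libraries of the series, 2 KOKI pools and 2 control pools, each a pool of RNA from 3 mice, and every gene of the deposited table. The series' design text speaks of 2 pools for each femoral genotype, whereas the labels used here give 2 control pools and 1 pool for each KOKI genotype. Both controls were labelled deficient for RAG2 and gamma c. The first KOKI pool carried the same deficiencies and is called the matched pool. The other KOKI pool was labelled deficient for RAG2, with no mention of gamma c, and is called the RAG2-only pool. So RAG2 deficiency is shared by all 4 libraries, and for the RAG2-only pool the KOKI genotype and gamma c cannot be told apart. The labels give no strain or age for the femoral mice and do not spell out KOKI. The series' title names a mini 3'RR and transcription of the immunoglobulin heavy chain (IgH) locus. The other libraries are splenic cultures, used here to share the estimate of spread and for side-by-side values. No treatment was given to the femoral cells, whose RNA was extracted directly.

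RAG2 works with RAG1 as the enzyme that cuts V, D and J gene segments so that they can be joined into an antigen receptor gene. Without it B and T cell development stops before a receptor is made, and in the bone marrow the B lineage ends at early progenitors. Gamma c, encoded by Il2rg, is a shared chain of several interleukin receptors, and mice lacking it as well have few early B cells and no natural killer cells. The 3'RR is a cluster of enhancers downstream of the IgH constant genes that drives heavy chain transcription, mainly in later B cells. Early B progenitors already transcribe unrearranged parts of the locus, from the D and J segments to Ighm.

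Transcripts of the deleted genes were present in every pool, and the deleted part of each gene is not given, so whole-gene counts do not check the genotypes. Levels are given in CPM, counts scaled to the TMM-normalised library size. Rag2 transcripts were at 8.71 and 6.51 CPM in the control pools, 7.47 CPM in the matched KOKI pool and 10.2 CPM in the RAG2-only KOKI pool. Il2rg stood at 11.7 and 7.63 CPM in the control pools and 10.5 and 12.4 CPM in the KOKI pools. The groups overlapped in both genes, and for Il2rg the RAG2-only pool lay just above control replicate 1. The libraries were labelled femoral B cells, and the defining markers of that lineage were mixed, with several near 0. Pax5, the factor that fixes B cell identity, had 3 and 11 counts in the controls and 0 and 3 in the KOKI pools. Cd79a, Vpreb1, Vpreb3 and Ms4a1 (CD20) likewise reached at most 13 counts in any pool. Other genes of the lineage were present: Cd79b, the partner of Cd79a in the receptor, had 295 and 299 counts in the controls and 201 and 205 in the KOKI pools, Ebf1, an early B cell factor, had 37 to 95 counts, and Blnk, a signalling adaptor, 355 to 619. Dntt, the enzyme that adds bases at receptor joints in early lymphoid cells, was present at 45.2 and 37.8 CPM in the control pools and 60.0 and 59.6 CPM in the KOKI pools. Summed neutrophil markers reached 23492 and 18463 CPM in the control pools and 20698 and 28366 CPM in the KOKI pools, and summed erythroid markers 13135 and 12519 CPM in the control pools and 11423 and 15430.0 CPM in the KOKI pools. These sums show RNA of several marrow lineages, and in such bulk samples fewer cells of a type and less RNA per cell cannot be told apart. Y-linked Ddx3y was at 145 and 129 CPM in the control pools and 90.4 and 123 CPM in the KOKI pools.

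Depth ran from 21138244 to 23059022 counts on genes in the KOKI pools and from 29251154 to 29314068 in the controls. Control replicate 1 stood apart: over log2 CPM of 16624 genes it correlated at 0.962 with control replicate 2 and at 0.949 and 0.936 with the KOKI pools, while control replicate 2 correlated at 0.970 and 0.964 with the KOKI pools, which correlated at 0.975 with each other. The controls were therefore no closer to each other than control replicate 2 was to either KOKI pool, and results are given below without control replicate 1 where that changes them. Levels also moved with gene length. Among protein-coding genes of up to 500 bases the median log2 fold change of KOKI over control was 0.99 (83 genes), and among those over 8000 bases it was -0.22 (1818 genes). The shift was present against either control: for the shortest class the median was 1.09 without control replicate 1 and 0.98 without control replicate 2. The share of counts on mitochondrial genes differed as well, at 6.50% and 7.19% in the controls and 3.50% and 3.57% in the KOKI pools. An offset fitted to gene length brought the class medians to between -0.02 and 0.13, and values under it are given as "with the length offset".

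**Figure D1:**
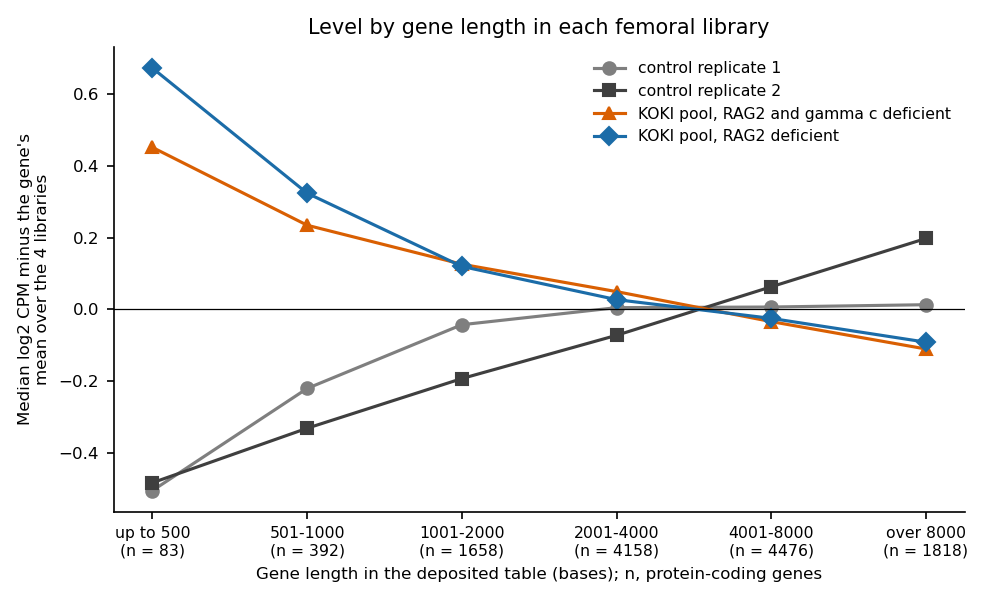
Median level of protein-coding genes in 6 classes of gene length (horizontal axis, bases) for each femoral library, as log2 CPM minus the gene's own mean over the 4 libraries (vertical axis); each point is 1 library and 1 length class. Both KOKI pools lie above both controls for genes of up to 2000 bases and below both for genes over 4000 bases.

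KOKI pools held more RNA of Ifi44l, an interferon-induced gene, and of Gm13225, Gm13160, Rps3a2 and Rps3a3, and these 5 genes were the only ones past the threshold when both KOKI pools were set against both controls. The threshold was an adjusted p under 0.05 in edgeR's quasi-likelihood test with Benjamini-Hochberg adjustment over 16624 genes, with log2 fold changes given with their standard error (SE), so 0.0301% of genes were called, all of them higher in KOKI. An unadjusted p under 0.05 was reached by 2687 genes. DESeq2, run as an alternative on the same genes, called 456 higher (2.74%) and 232 lower (1.4%). All 5 genes were called in 7 of the 12 alternatives, among them each fit without 1 library, while 4 alternatives called no gene: DESeq2's size factors in edgeR, a minimum count of 30, all 10 libraries in the fit, and the length offset. The number of calls turned on the libraries: it was 2114 without control replicate 1, 3456 without control replicate 2, 39 without the matched pool and 13 without the RAG2-only pool. In the order of the libraries, both KOKI pools lay above both controls for 4204 genes (25.3%) and below both for 4019 genes (24.2%). The members of each gene group are read against those shares.

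Ifi44l (chr3:151758737-151762892, mm10) had 0 and 0 counts in the controls and 323 and 134 in the KOKI pools, that is 0 CPM in both controls and 15.8 and 6.33 CPM in the matched and the RAG2-only pool. Taking 3 counts over both controls as the most that 0 allows, its mean in the KOKI pools was at least 228-fold higher (edgeR adjusted p = 0.0437). The same gene had 0 counts in all 4 splenic cultures of wild-type mice and 7 and 13 counts in the cultures of KOKI mice. Gm13225 (chr4:145510759-145539188), which RefSeq lists as Zfp990, a zinc finger protein gene, had 5 and 7 counts in the controls and 128 and 230 in the KOKI pools (log2 fold change 5.43 ± 0.51 (SE), edgeR adjusted p = 0.0437). Both genes passed the count filter through the KOKI pools alone. In the spleen Gm13225 was not higher in KOKI, with 18 and 1 counts in the wild-type LPS cultures and 1 and 0 in the KOKI cultures.

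Gm13160 (chr4:147086358-147086984), a processed pseudogene, rose from 18.8 and 21.8 CPM in the control pools to 69.6 and 72.7 CPM in the KOKI pools (log2 fold change 1.81 ± 0.18 (SE), edgeR adjusted p = 0.0437). Rps3a2 (chr14:88123017-88123808) stood at 22.5 and 15.4 CPM in the control pools, 135 CPM in the matched KOKI pool and 91.6 CPM in the RAG2-only KOKI pool (log2 fold change 2.58 ± 0.27 (SE), edgeR adjusted p = 0.0437). Rps3a3 (chr13:108670603-108671397) stood at 12.8 and 3.78 CPM in the control pools, 351 CPM in the matched KOKI pool and 224 CPM in the RAG2-only KOKI pool (log2 fold change 5.11 ± 0.56 (SE), edgeR adjusted p = 0.0497). Both KOKI pools lay above both controls in each of the 3 genes, and for Rps3a3 the controls also differed among themselves. Rps3a2 and Rps3a3 are processed pseudogenes, copies of Rps3a1, which encodes a protein of the small ribosomal subunit. Reads from near-identical copies can be split between them by the counting, so both values are uncertain. Rps3a1 itself stood at 1536 and 1029 CPM in the control pools and 846 and 853 CPM in the KOKI pools (log2 fold change -0.59 ± 0.30 (SE), edgeR adjusted p = 0.363), a difference in the other direction that did not pass the test. In the splenic KOKI cultures the 2 libraries disagreed on Rps3a3, at 7236 and 147 counts, against 138 and 208 in the wild-type LPS cultures.

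**Figure D2:**
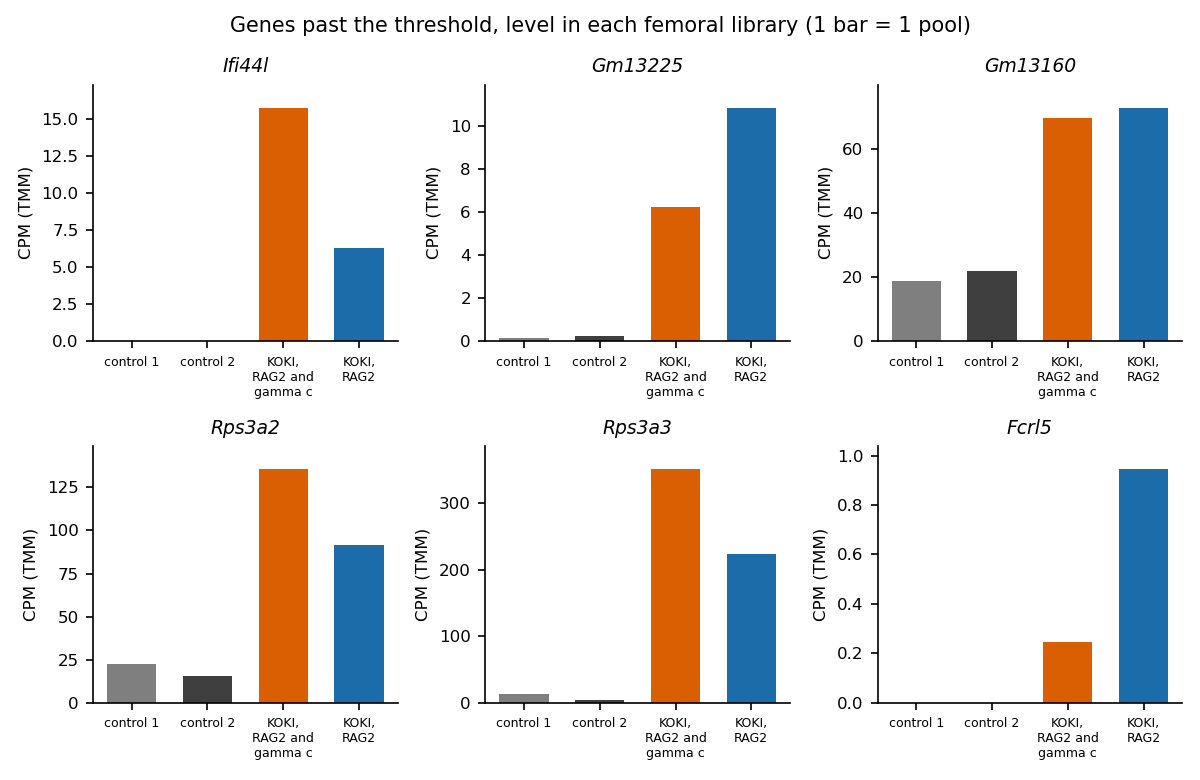
Level in CPM (TMM-normalised; vertical axes from 0, a separate scale per gene) of the 5 genes called with both KOKI pools together and of Fcrl5, called in the RAG2-only pool alone; each bar is 1 femoral library. Ifi44l and Fcrl5 are at 0 in both controls, and both KOKI pools exceed both controls in all 6 panels.

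The next genes by unadjusted p missed the threshold. They were the processed pseudogenes Gm13841 and Gm4149, the interferon-inducible membrane protein gene Ifitm1, the histone gene Hist2h2ab and Bglap2, an osteocalcin gene. Ifitm1 stood at 13.2 and 17.7 CPM in the control pools and 46.5 and 47.6 CPM in the KOKI pools (log2 fold change 1.61 ± 0.21 (SE), edgeR adjusted p = 0.0917). Hist2h2ab stood at 12.1 and 15.4 CPM in the control pools and 39.3 and 41.5 CPM in the KOKI pools (log2 fold change 1.55 ± 0.20 (SE), edgeR adjusted p = 0.0917). Each had both KOKI pools above both controls, and DESeq2 called all 5, with adjusted p from 3.92e-08 for Gm13841 to 1.19e-06 for Hist2h2ab. With the length offset the log2 fold change was 1.21 for Ifitm1 and 0.69 for Hist2h2ab. It was 0.75 for Gm13841, 0.75 for Gm4149 and 0.98 for Bglap2.

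Interferon response genes of the list used here lay more often lower than higher in the KOKI pools. The list was chosen with earlier results of these data known. It does not hold Ifi44l, Ifitm1 or Bst2, each with both KOKI pools above both controls. The genes of the list are switched on by interferons through factors that include STAT2 and IRF9. They include the IFIT and OAS families, which act against viral RNA. Of 30 tested, none passed the edgeR threshold, 14 had both KOKI pools below both controls and 2 had both above, against 24.2% and 25.3% of all genes, and 10 lower and 2 higher ones had an unadjusted p under 0.05, against 7.5% and 8.67% of all genes. Their median log2 fold change was -0.45, against -0.02 for all genes tested. It was -0.46 with the length offset, -0.65 without control replicate 1 and -0.18 without control replicate 2. DESeq2 called 5 of them lower and 1 higher.

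Rsad2, or viperin, an enzyme that makes a chain-ending nucleotide, stood at 118 and 98.5 CPM in the control pools, 55.5 CPM in the matched KOKI pool and 49.2 CPM in the RAG2-only KOKI pool (log2 fold change -1.05 ± 0.19 (SE), edgeR adjusted p = 0.103). Ifit3, which binds other IFIT proteins, stood at 12.1 and 15 CPM in the control pools and 6.1 and 4.01 CPM in the KOKI pools (log2 fold change -1.42 ± 0.31 (SE), edgeR adjusted p = 0.118). Ifit1, which binds viral RNA caps, stood at 7.44 and 8.4 CPM in the control pools and 3.07 and 3.87 CPM in the KOKI pools (log2 fold change -1.19 ± 0.32 (SE), edgeR adjusted p = 0.161). In all 3 genes the KOKI pools were both lower and the groups did not overlap. Oasl2 was similar, with a log2 fold change of -0.89 and 20.8 and 26.9 CPM in the control pools and 12 and 13.7 CPM in the KOKI pools. Slfn1, a gene of the Schlafen family, stood at 57.6 and 44.7 CPM in the control pools and 30.4 and 26.8 CPM in the KOKI pools. The factor genes Stat2 and Irf9 had log2 fold changes of -0.21 and 0.01, each with overlapping groups.

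The 2 members that lay higher were Ifi44 and Ifi27l2a. Ifi44, a relative of Ifi44l, stood at 4.78 and 8.81 CPM in the control pools and 27 and 17.2 CPM in the KOKI pools (log2 fold change 1.70 ± 0.35 (SE), edgeR adjusted p = 0.115). Ifi27l2a stood at 73.3 and 172 CPM in the control pools and 227 and 273 CPM in the KOKI pools (log2 fold change 1.03 ± 0.36 (SE), edgeR adjusted p = 0.241), with control replicate 1 far below control replicate 2.

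The interferon-inducible 200 family, genes on chromosome 1 whose proteins sense DNA or bind other family members, lay lower in the KOKI pools throughout. Of 13 genes deposited, 12 were tested, and in all 12 of these both KOKI pools lay below both controls, against 24.2% of all genes. None passed the edgeR threshold. DESeq2 called 4 of them lower. The median log2 fold change was -0.73, and -0.81 with the length offset, -0.89 without control replicate 1 and -0.59 without control replicate 2. Gm4955, listed by RefSeq as Ifi206, stood at 6.11 and 9.87 CPM in the control pools, 2.59 CPM in the matched KOKI pool and 1.51 CPM in the RAG2-only KOKI pool (log2 fold change -1.96 ± 0.42 (SE), edgeR adjusted p = 0.118). AI607873, listed as Ifi207, stood at 59.9 and 89.6 CPM in the control pools and 50.2 and 40.8 CPM in the KOKI pools (log2 fold change -0.72 ± 0.23 (SE), edgeR adjusted p = 0.209). BC094916 was lowest in the RAG2-only pool, at 11.9 and 11.2 CPM in the control pools and 7.66 and 2.83 CPM in the KOKI pools. The DNA sensor Aim2 had a log2 fold change of -0.42. These genes resemble each other and lie side by side, so reads may be shared among them. Of 19 monocyte and macrophage genes, described below, 9 lay below both controls and 5 above, with sums of 2259 and 2393 CPM in the control pools and 2497 and 2421 CPM in the KOKI pools, and their part in these values was not tested.

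**Figure D3:**
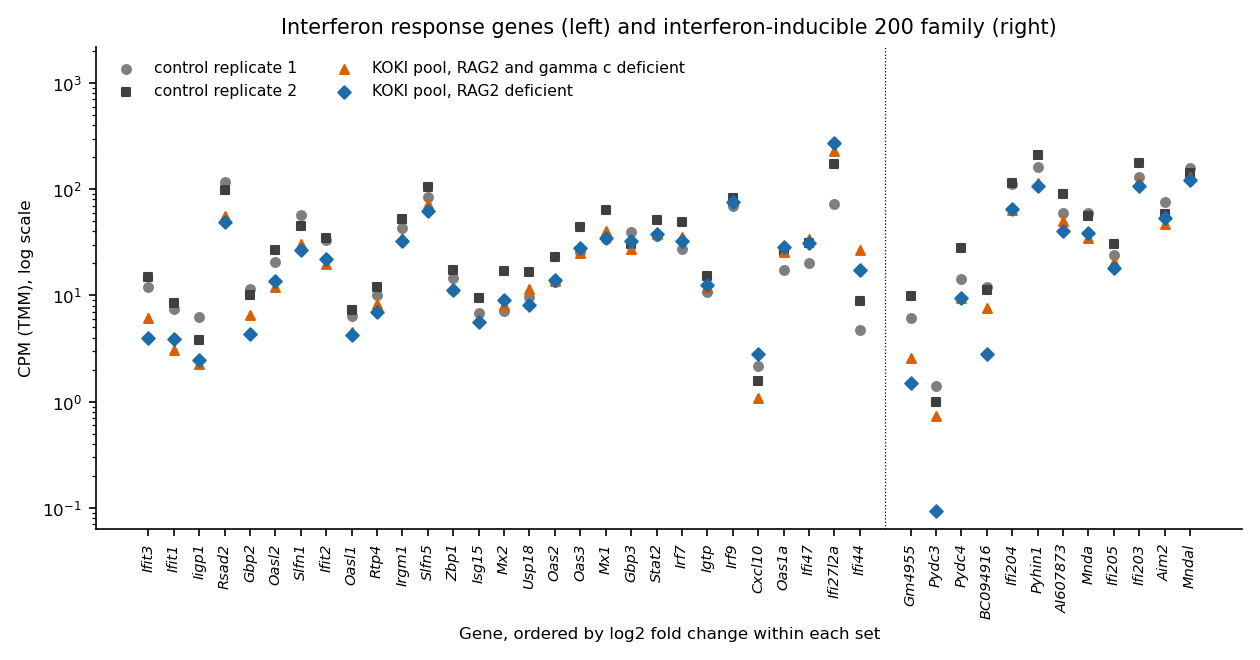
Level of 29 of the 30 tested interferon response genes (left of the dotted line) and of each tested member of the interferon-inducible 200 family (right), in CPM on a log axis, with 1 point per femoral library; genes are ordered by log2 fold change within each set. On the left 14 genes have both KOKI pools below both controls and 2 have them above, and on the right all 12 genes have them below.

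To show what sequence these genes share at their starts, promoter windows were searched for GAAANNGAAA on either strand (TTTCNNTTTC on the other), the core of the element bound by the interferon-activated factors. It was found in 13 of the 21 interferon response genes with a window (61.9%) and in 3 of the 5 members of the 200 family with one (60.0%), against 1131 of 32851 windows of the same length (3.44%). Rsad2 and Ifit3 lay lower in the KOKI pools and Ifi44l higher, and their windows follow, from 250 bases before to 50 after the start, 5′ to 3′ on the gene's strand, with matches in capitals. They are from RefSeq, build GRCm38.p6, at chr12:26456403-26456702 (minus strand), chr19:34583279-34583578 (plus strand) and chr3:151762842-151763141 (minus strand).
Rsad2: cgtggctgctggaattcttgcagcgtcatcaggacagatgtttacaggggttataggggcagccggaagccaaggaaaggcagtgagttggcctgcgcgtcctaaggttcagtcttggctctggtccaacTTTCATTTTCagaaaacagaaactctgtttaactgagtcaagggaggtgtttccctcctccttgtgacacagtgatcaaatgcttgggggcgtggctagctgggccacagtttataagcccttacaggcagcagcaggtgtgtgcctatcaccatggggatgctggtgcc
Ifit3: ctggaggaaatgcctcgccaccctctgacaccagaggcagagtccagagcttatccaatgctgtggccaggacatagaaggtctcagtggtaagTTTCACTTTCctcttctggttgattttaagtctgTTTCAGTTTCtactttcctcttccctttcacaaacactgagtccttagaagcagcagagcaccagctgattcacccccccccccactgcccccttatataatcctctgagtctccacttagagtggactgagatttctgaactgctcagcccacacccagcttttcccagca
Ifi44l: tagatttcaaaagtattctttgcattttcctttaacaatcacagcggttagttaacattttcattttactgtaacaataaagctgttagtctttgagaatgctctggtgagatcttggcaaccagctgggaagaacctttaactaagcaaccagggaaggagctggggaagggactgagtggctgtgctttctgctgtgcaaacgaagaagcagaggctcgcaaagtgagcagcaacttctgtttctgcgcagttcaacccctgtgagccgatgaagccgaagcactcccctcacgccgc
The window of Rsad2 holds 1 match, that of Ifit3 holds 2 and that of Ifi44l holds 0. A match is a run of letters, and no binding was measured.

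Monocyte and macrophage genes were split. Of 19 monocyte and macrophage genes tested none passed the edgeR threshold, and DESeq2 called 4 lower. Both KOKI pools lay below both controls in 9 and above both in 5, against 24.2% and 25.3% of all genes. Spic, the factor that directs iron-recycling macrophages, stood at 16 and 13.8 CPM in the control pools and 5.9 and 6.47 CPM in the KOKI pools (log2 fold change -1.27 ± 0.25 (SE), edgeR adjusted p = 0.115). Mrc1, the mannose receptor CD206, stood at 65.3 and 75.8 CPM in the control pools and 33.9 and 38.7 CPM in the KOKI pools (log2 fold change -0.96 ± 0.18 (SE), edgeR adjusted p = 0.113). Hmox1, the heme-degrading enzyme, stood at 98.7 and 101 CPM in the control pools and 59.9 and 62.8 CPM in the KOKI pools, and Slc40a1, the iron exporter ferroportin, at 105 and 149 CPM in the control pools and 72.4 and 77.6 CPM in the KOKI pools. These 4 genes did not overlap between the groups. The complement gene C1qb stood at 21.5 and 25.5 CPM in the control pools and 12.5 and 15.3 CPM in the KOKI pools. C1qa, which encodes another chain of the same complement protein, had a log2 fold change of -0.83. Other macrophage genes did not follow: Adgre1, the F4/80 antigen, had a log2 fold change of 0.29 with both KOKI pools above both controls, and Cd68, at 0.08, Timd4, at -0.54, and Cd5l, at -0.66, had overlapping groups, and for Cd5l the value was 0.43 without control replicate 2. Csf1r, the growth factor receptor of the whole lineage, had a log2 fold change of 0.01, and Ly6c2, Ccr2 and Cx3cr1, marks of monocytes, had 0.20, 0.34 and 0.68 with both KOKI pools above both controls. The median of the list was -0.54, and -0.58 with the length offset, -0.73 without control replicate 1 and -0.26 without control replicate 2.

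Erythroid genes were split. Of 21 tested 12 had both KOKI pools below both controls and 2 above, against 24.2% and 25.3% of all genes. None passed the edgeR threshold, and DESeq2 called 4 lower. Epb42, protein 4.2, stood at 138 and 82.9 CPM in the control pools and 50.8 and 46.2 CPM in the KOKI pools (log2 fold change -1.19 ± 0.25 (SE), edgeR adjusted p = 0.118). Control replicate 1 was the highest library and the KOKI pools were close to each other. Slc4a1, the band 3 anion exchanger, stood at 695 and 519.6 CPM in the control pools and 322 and 353 CPM in the KOKI pools, while the globin genes Hba-a2 and Hbb-bt had log2 fold changes of 0.79 and 0.47, with the KOKI pools above the controls. The globin genes are short, and with the length offset Hba-a2 had 0.12 and Hbb-bt -0.16. The median of the list was -0.51, and -0.64 with the length offset, -0.26 without control replicate 1 and -0.74 without control replicate 2.

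Bone-forming genes lay higher in the KOKI pools. Of 22 osteoblast and stroma genes tested 11 had both KOKI pools above both controls and 4 below, against 25.3% and 24.2% of all genes. None passed the edgeR threshold, and DESeq2 called 6 higher and 1 lower. Bglap and Bglap2 encode osteocalcin, the main non-collagen protein that osteoblasts lay down, and as near-identical copies they may share reads. Bglap stood at 32.3 and 59.7 CPM in the control pools, 159.8 CPM in the matched KOKI pool and 225 CPM in the RAG2-only KOKI pool (log2 fold change 2.06 ± 0.32 (SE), edgeR adjusted p = 0.0922). Bglap2 stood at 17.6 and 27.5 CPM in the control pools and 73.2 and 89.1 CPM in the KOKI pools (log2 fold change 1.85 ± 0.25 (SE), edgeR adjusted p = 0.0917). Both genes are short, and with the length offset Bglap had 1.34 and Bglap2 0.98. Sparc, or osteonectin, stood at 82 and 115 CPM in the control pools and 225 and 258 CPM in the KOKI pools (log2 fold change 1.29 ± 0.23 (SE), edgeR adjusted p = 0.103). Both KOKI pools exceeded both controls in each, and the RAG2-only pool was the higher of the KOKI pools.

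Among the other members, Dmp1, a matrix protein of osteocytes, stood at 0.228 and 0.417 CPM in the control pools and 2.05 and 3.68 CPM in the KOKI pools, and Mmp13, a collagenase of bone, at 7.28 and 8.53 CPM in the control pools and 17.6 and 21.5 CPM in the KOKI pools. Col1a1, the main collagen of bone, stood at 163 and 568 CPM in the control pools and 1054 and 999.6 CPM in the KOKI pools (log2 fold change 1.49 ± 0.51 (SE), edgeR adjusted p = 0.225), a spread in which control replicate 1 stood far below control replicate 2. Collagen genes as a family had 17 of 34 tested above both controls and 5 below, against 25.3% and 24.2% of all genes. Col2a1, the collagen of cartilage, stood at 6.96 and 8.88 CPM in the control pools and 25.1 and 22.7 CPM in the KOKI pools (log2 fold change 1.59 ± 0.23 (SE), edgeR adjusted p = 0.0922). The members that lay lower were Lpl, lipoprotein lipase, at 55.7 and 77.5 CPM in the control pools and 31.4 and 37.4 CPM in the KOKI pools (log2 fold change -0.95 ± 0.21 (SE), edgeR adjusted p = 0.124), and Lepr, Postn and Adipoq, with log2 fold changes of -0.38, -0.45 and -0.19. The median of the osteoblast and stroma list was 0.47, and 0.49 with the length offset, 0.50 without control replicate 1 and 0.44 without control replicate 2. With each pool set alone against the controls, the median was 0.17 in the matched pool and 0.70 in the RAG2-only pool. The summed level of the list was 983 and 1846 CPM in the control pools and 3101 and 3171 CPM in the KOKI pools, and it differed between the controls as well.

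Antigen presentation genes lay higher in the KOKI pools by small amounts. Of 26 class I and class II pathway genes tested 17 lay above both controls and 1 below, against 25.3% and 24.2% of all genes. None passed the edgeR threshold, and DESeq2 called 2 higher. H2-Eb1, a class II chain, stood at 31.5 and 47.8 CPM in the control pools and 82.5 and 75.6 CPM in the KOKI pools (log2 fold change 1.00 ± 0.23 (SE), edgeR adjusted p = 0.127). H2-Aa, another, stood at 105 and 120.2 CPM in the control pools and 175 and 168 CPM in the KOKI pools (log2 fold change 0.61 ± 0.19 (SE), edgeR adjusted p = 0.193). Psmb9, a subunit of the immunoproteasome that cuts peptides for class I, stood at 39.5 and 43.3 CPM in the control pools and 68.2 and 70.9 CPM in the KOKI pools (log2 fold change 0.75 ± 0.17 (SE), edgeR adjusted p = 0.126). The class I light chain B2m did not separate, with a log2 fold change of 0.02 that was -0.48 with the length offset. The median of the list was 0.31, and 0.17 with the length offset, 0.22 without control replicate 1 and 0.43 without control replicate 2. Class II genes are also made by dendritic cells. Of 15 dendritic cell genes 9 had both KOKI pools above both controls and 0 below, against 25.3% and 24.2% of all genes. Their median was 0.38, with sums of 896 and 1040.2 CPM in the control pools and 1171 and 1211 CPM in the KOKI pools. The part of these markers in the class II values was not tested.

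Cox6a2 and Bst2, used as marks of plasmacytoid dendritic cells, stood at 12 and 13.2 CPM in the control pools and 23.9 and 38 CPM in the KOKI pools (log2 fold change 1.29 ± 0.26 (SE), edgeR adjusted p = 0.115) and at 40.3 and 77.9 CPM in the control pools and 116 and 141 CPM in the KOKI pools. Siglech, a receptor of the same cells, stood at 110.4 and 122 CPM in the control pools and 128 and 149 CPM in the KOKI pools, a smaller difference. Cox6a2 and Bst2 are short genes. With the length offset Cox6a2 had a log2 fold change of 0.64, and Bst2 had 0.52 with it against 1.12 without. Among 20 early B cell genes tested 8 lay above both controls and 2 below, against 25.3% and 24.2% of all genes. Their median was 0.11. Spib, a factor shared by B and plasmacytoid dendritic cells, stood at 18.4 and 30.8 CPM in the control pools and 48.3 and 47 CPM in the KOKI pools (log2 fold change 0.95 ± 0.25 (SE), edgeR adjusted p = 0.159). Dntt had log2 fold change 0.53 ± 0.18 (SE), edgeR adjusted p = 0.222. Cd24a, a surface protein of early B and of erythroid cells, stood at 1205 and 569 CPM in the control pools and 442 and 472 CPM in the KOKI pools (log2 fold change -0.96 ± 0.36 (SE), edgeR adjusted p = 0.259), with control replicate 1 far above the rest.

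At the IgH locus the constant gene Ighm did not separate the groups, J segment counts were lower and the D segment count was higher in the KOKI pools, with none past the threshold. Only Ighd4-1, the D segment next to the J cluster, had counts among 20 D segments, as had all 4 J segments, so these are the segments behind the D and J counts. Their sequences, on the minus strand of chr12 (GRCm38, GENCODE M21), read 5′ to 3′, and capitals mark the bases of each J segment that encode tryptophan and glycine, the start of the motif common to J segments. They lie at chr12:113430528-113430538 (Ighd4-1), chr12:113429781-113429833 (Ighj1), chr12:113429468-113429515 (Ighj2), chr12:113429085-113429132 (Ighj3) and chr12:113428514-113428567 (Ighj4).
Ighd4-1: ctaactgggac
Ighj1: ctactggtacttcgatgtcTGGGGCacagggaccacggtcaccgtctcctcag
Ighj2: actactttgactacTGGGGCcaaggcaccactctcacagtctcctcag
Ighj3: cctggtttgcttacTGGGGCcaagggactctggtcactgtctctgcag
Ighj4: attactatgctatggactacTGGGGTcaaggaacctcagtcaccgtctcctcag
Counts of Ighj2 were taken over the longer stretch chr12:113429468-113429567 of the deposited table, and those of the other 4 segments over the stretches shown. A count records any read that overlaps the counted stretch, joined or not.

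Ighm, the constant gene of the mu heavy chain, stood at 186 and 169 CPM in the control pools, 227 CPM in the matched KOKI pool and 179.9 CPM in the RAG2-only KOKI pool (log2 fold change 0.19 ± 0.21 (SE), edgeR adjusted p = 0.693). Ighd, the delta gene, stood at 2.89 and 3.46 CPM in the control pools and 3.9 and 3.21 CPM in the KOKI pools. The groups overlapped in both. The gamma, epsilon and alpha genes had at most 2 counts in any pool, which is under the 3 counts that a count of 0 allows. The J segments summed to 14.8 and 16.6 CPM in the control pools, 11.9 CPM in the matched KOKI pool and 11.3 CPM in the RAG2-only KOKI pool (log2 fold change -0.44 ± 0.22 (SE), edgeR adjusted p = 0.373), with both KOKI pools below both controls. Ighj2 differed more than the sum, at 5.27 and 4.26 CPM in the control pools and 2.83 and 2.27 CPM in the KOKI pools (log2 fold change -0.90 ± 0.38 (SE), edgeR adjusted p = 0.294), while Ighj1 stood at 4.91 and 4.55 CPM in the control pools and 4.64 and 4.58 CPM in the KOKI pools. Ighd4-1 stood at 1.14 and 1.22 CPM in the control pools and 3.32 and 2.08 CPM in the KOKI pools, or 35 and 38 counts in the controls and 68 and 44 in the KOKI pools (log2 fold change 1.19 ± 0.50 (SE), edgeR adjusted p = 0.298), with both KOKI pools above both controls. The D and J segments are all shorter than 500 bases. Among protein-coding genes of up to 500 bases the median log2 fold change was 0.99, with 69.9% above both controls. The part of length in the segment counts was not tested.

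V segments had few counts, and different segments held them. Of 183 V segments 32 had any count in the femoral pools: 9 in the controls only, 15 in the KOKI pools only and 8 in both groups. Their sum was 144 and 92 counts in the controls and 39 and 63 in the KOKI pools, or 4.68 and 2.95 CPM in the control pools and 1.9 and 2.98 CPM in the KOKI pools (log2 fold change -0.64 ± 0.45 (SE), edgeR adjusted p = 0.513). Ighv1-41 alone had 50 and 39 counts in the controls and 7 and 0 in the KOKI pools. Ighv8-10 had 14 and 13 counts in the controls and 1 and 0 in the KOKI pools, and Ighv8-6 had 14 and 9 counts in the controls and 0 and 3 in the KOKI pools. In the other direction Ighv1-29 had 0 and 0 counts in the controls and 3 and 13 in the KOKI pools, and Ighv1-84 had 0 and 0 counts in the controls and 3 and 8 in the KOKI pools. These segments were singled out after their counts were seen, V segments resemble each other, and single V segments were not tested.

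**Figure D4:**
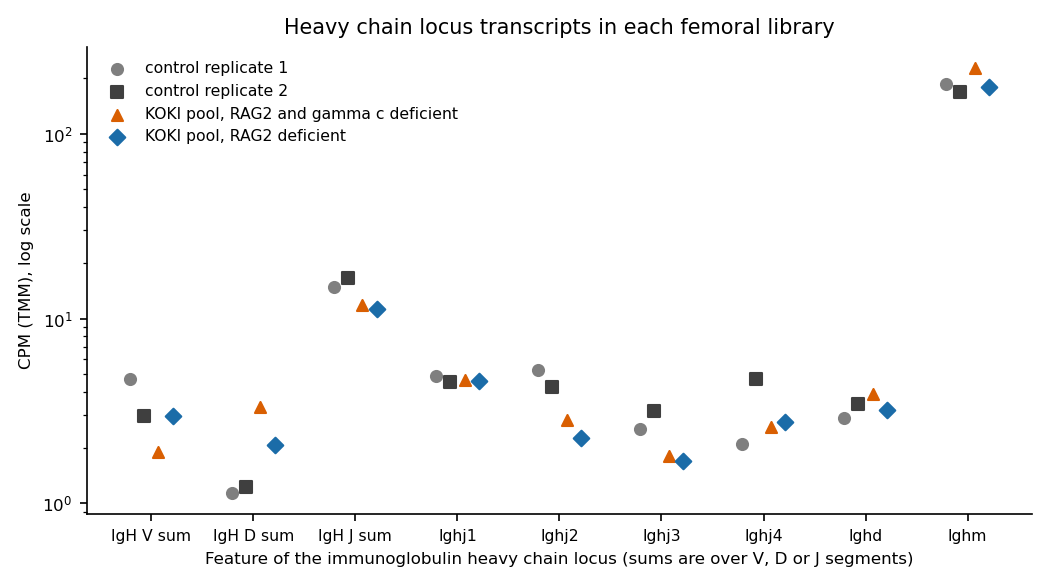
Level in CPM (log axis) of the summed V, D and J segments, the 4 J segments, Ighd and Ighm in each femoral library, with 1 point per library. The J sum and Ighj2 have both KOKI pools below both controls, the D sum has both above, and Ighm and Ighd overlap.

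Within 10 Mb of the locus (chr12:113254830-116010093) 98 genes were tested and 0 were called by edgeR, with 24 above both controls and 25 below, together 50% against 49.5% of all genes. A further requirement of a log2 fold change of at least 1 in size left 16 of the 98 (16.3%), the same rule holding for 10.2% of all genes, 5.96% in the higher and 4.23% in the lower direction. On the whole of chromosome 12 the rule held for 13% of genes tested, and on the other autosomes for 6.57% to 13.1%. The region near the locus stood above these shares, by less against its own chromosome, and the difference was not tested. Of 19 tested genes from a list drawn up for the locus 5 lay above both controls and 4 below, against 25.3% and 24.2% of all genes. Not all of that list is near the locus. It also holds Plekhg3, at chr12:76533560-76579039, and Dnajb6, on chromosome 5, both with overlapping groups. Crip1, a small zinc-binding protein gene beyond the constant genes, stood at 101 and 351 CPM in the control pools and 572 and 695 CPM in the KOKI pools (log2 fold change 1.49 ± 0.50 (SE), edgeR adjusted p = 0.222), again with control replicate 1 far below control replicate 2. Nudt14, which splits UDP-glucose, stood at 4.84 and 5.58 CPM in the control pools and 8.1 and 14.4 CPM in the KOKI pools (log2 fold change 1.11 ± 0.34 (SE), edgeR adjusted p = 0.191). Esyt2, a membrane contact protein beyond the V segments, stood at 105 and 117 CPM in the control pools and 68.6 and 77.6 CPM in the KOKI pools (log2 fold change -0.60 ± 0.18 (SE), edgeR adjusted p = 0.186).

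Receptors that use gamma c and genes that report their signal were a list of 20, of which 19 were tested, and none passed the threshold. Both KOKI pools lay above both controls in 9 and below both in 3, against 25.3% and 24.2% of all genes. Il7r, the receptor chain for interleukin 7, stood at 13.9 and 16.9 CPM in the control pools, 21.3 CPM in the matched KOKI pool and 19.8 CPM in the RAG2-only KOKI pool (log2 fold change 0.42 ± 0.21 (SE), edgeR adjusted p = 0.373). Socs3, a feedback inhibitor of cytokine receptors, stood at 13.8 and 9.04 CPM in the control pools, 16.2 CPM in the matched KOKI pool and 29.5 CPM in the RAG2-only KOKI pool (log2 fold change 1.00 ± 0.33 (SE), edgeR adjusted p = 0.22). Pim1, a kinase induced through STAT factors, stood at 79.4 and 65.9 CPM in the control pools, 90.8 CPM in the matched KOKI pool and 149.8 CPM in the RAG2-only KOKI pool (log2 fold change 0.73 ± 0.26 (SE), edgeR adjusted p = 0.239). For both, the RAG2-only pool was well above the matched pool, which lay just above the controls. Jak1, the kinase bound by gamma c's partner chains, stood at 232 and 193 CPM in the control pools and 153 and 143 CPM in the KOKI pools, lower in both KOKI pools. Natural killer cells need gamma c, and some of their genes had few counts. Ncr1, their defining receptor, had 8 and 4 counts in the controls and 1 and 1 in the KOKI pools. Gzma had 0 in all 4, and Tbx21 and Prf1 had at most 5 counts. Eomes had 2 and 10 counts in the controls and 1 and 16 in the KOKI pools. Other genes of the natural killer and innate lymphoid list were present: Nkg7 had 814 to 967 counts, Klrb1f 555 to 1063 and Il18rap 976 to 2733. Of 20 genes of this list tested 4 lay above both controls and 5 below, against 25.3% and 24.2% of all genes. Klrd1, or CD94, stood at 8.61 and 13.9 CPM in the control pools and 18.9 and 23 CPM in the KOKI pools (log2 fold change 0.89 ± 0.28 (SE), edgeR adjusted p = 0.195).

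Short genes of the basic cell machinery lay higher in the KOKI pools, and the length offset reduced these differences. Replication-dependent histone genes had 60 of 64 tested above both controls and 0 below, against 25.3% and 24.2% of all genes. Their median log2 fold change was 1.24, and 0.42 with the length offset. Nuclear-encoded subunits of the respiratory chain had 64 of 82 above and a median of 0.73, or 0.37 with the offset. Genes of cytosolic ribosomal proteins had 58 of 82 above and a median of 0.64, or 0.44 with the offset. None of their members passed the edgeR threshold. DESeq2 called 47 histone, 37 respiratory chain and 38 ribosomal protein genes higher and none lower, against 2.74% and 1.4% of all genes. Uqcr10, a subunit of complex III, stood at 45.6 and 57.7 CPM in the control pools and 137 and 193 CPM in the KOKI pools (log2 fold change 1.68 ± 0.23 (SE), edgeR adjusted p = 0.0922), and Romo1, a small protein of the mitochondrial inner membrane, at 12.4 and 19.5 CPM in the control pools and 50.9 and 60.1 CPM in the KOKI pools (log2 fold change 1.80 ± 0.25 (SE), edgeR adjusted p = 0.0922). Hist1h4f stood at 321 and 922 CPM in the control pools and 2445 and 2909 CPM in the KOKI pools (log2 fold change 2.11 ± 0.48 (SE), edgeR adjusted p = 0.132).

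Of 26 genes of the mitochondrial genome tested 13 had both KOKI pools above both controls and 7 below, with a median of 0.35. In a list of 15 of these genes 7 lay below both controls and 3 above, against 24.2% and 25.3% of all genes. The median of the list was -0.51, and -1.07 with the length offset, -0.07 without control replicate 1 and -0.64 without control replicate 2. The gene mt-Nd5, a subunit of complex I, stood at 890.0 and 634 CPM in the control pools and 348 and 368 CPM in the KOKI pools (log2 fold change -1.09 ± 0.27 (SE), edgeR adjusted p = 0.142). Its log2 fold change was -1.26 with the offset. The small ribosomal RNA mt-Rnr1 stood at 6718 and 9599 CPM in the control pools and 3845 and 4132 CPM in the KOKI pools (log2 fold change -1.03 ± 0.37 (SE), edgeR adjusted p = 0.242). The 3 of the list that lay above, mt-Nd3, mt-Co2 and mt-Co3, had log2 fold changes of 0.93, 0.42 and 0.29, which were 0.05, -0.20 and -0.26 with the offset.

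Medians of small RNA genes and pseudogenes depended on which control was used and on the length offset. Small nucleolar RNA genes, which guide modification of ribosomal RNA, had a median of 1.00 over 179 tested, and 0.13 with the length offset, 0.63 without control replicate 1 and 1.75 without control replicate 2. For 999 processed pseudogenes the median was -0.59, and -1.22 with the length offset, -0.18 without control replicate 1 and -0.86 without control replicate 2. Small nuclear RNA genes summed to 2306 and 10512 CPM in the control pools and 21036 and 5319 CPM in the KOKI pools, a wide gap between the controls. Rn7sk, the 7SK RNA that holds back transcription elongation, was the most abundant RNA of both KOKI pools at 6.83% and 8.56% of counts, and stood at 27813 and 34007 CPM in the control pools and 70408 and 93183 CPM in the KOKI pools (edgeR adjusted p = 0.248).

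Some proliferation genes lay lower in the KOKI pools and others did not. Of 34 cell cycle genes tested 12 had both KOKI pools below both controls and 4 above, against 24.2% and 25.3% of all genes. Their median was -0.14, and -0.18 with the length offset, 0.01 without control replicate 1 and -0.31 without control replicate 2. Mki67, the Ki-67 antigen of dividing cells, stood at 3809 and 2257 CPM in the control pools and 1492 and 1197 CPM in the KOKI pools (log2 fold change -1.17 ± 0.36 (SE), edgeR adjusted p = 0.19), and Cenpf, a kinetochore protein, at 387 and 252 CPM in the control pools and 159 and 129.8 CPM in the KOKI pools (log2 fold change -1.15 ± 0.26 (SE), edgeR adjusted p = 0.131). Gins1, part of the replication helicase, lay higher, at 20.6 and 20.3 CPM in the control pools and 31.8 and 34.3 CPM in the KOKI pools (log2 fold change 0.69 ± 0.18 (SE), edgeR adjusted p = 0.159). The heat shock genes Hspa1a and Hspa1b, near-identical copies, stood at 48.3 and 47.4 CPM in the control pools and 23.8 and 8.64 CPM in the KOKI pools and at 64.7 and 64.4 CPM in the control pools and 32.2 and 8.31 CPM in the KOKI pools, with the RAG2-only pool lowest. Nr4a1, an immediate early gene, stood at 21.7 and 27.6 CPM in the control pools and 52.3 and 42.6 CPM in the KOKI pools (log2 fold change 0.94 ± 0.21 (SE), edgeR adjusted p = 0.118).

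**Figure D5:**
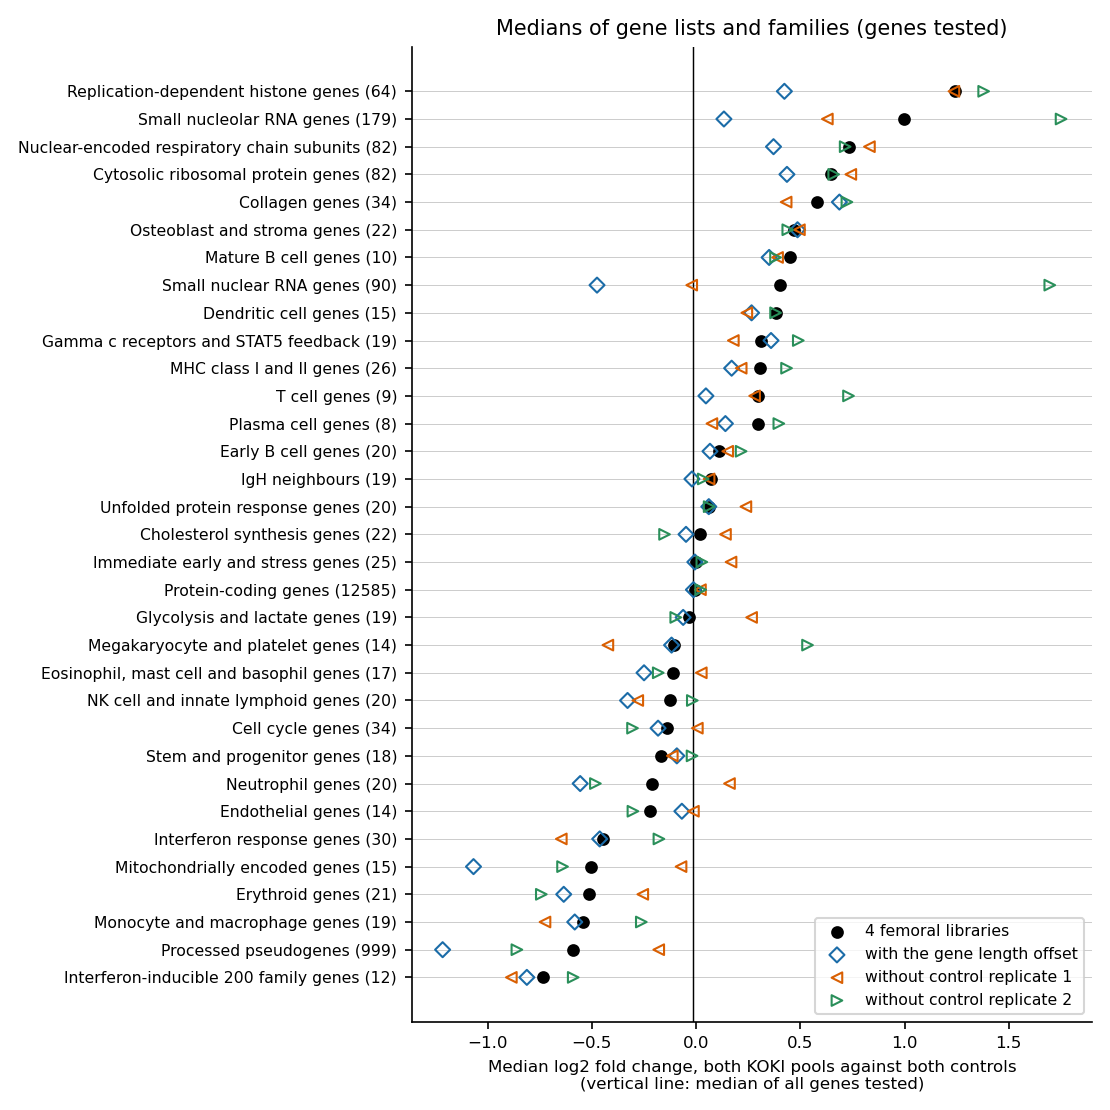
Median log2 fold change of both KOKI pools against both controls (horizontal axis) for gene lists and families with at least 5 genes tested (vertical axis, number tested in brackets), with all 4 libraries, with the gene length offset and without each control replicate. The sex-linked and histone deacetylase lists are not shown. The vertical line is the median of all genes tested. Medians of the histone, osteoblast, interferon response and 200 family lists keep their side of the line in all 4 versions, while those of the neutrophil, small nuclear RNA and megakaryocyte lists change side.

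Each KOKI pool was also tested alone, where a lone library has no spread of its own and is assumed to vary like the other groups. Few or no calls in such a test do not show that a pool is like the controls. In the matched pool, which shares both deficiencies with the controls, edgeR called 0 of 20204 genes (0%), 1660 had an unadjusted p under 0.05, and DESeq2 called 25. Among the 10 genes with the smallest p were Ifi44l (edgeR adjusted p = 0.162), Dennd5b, Bglap, St8sia6 and Romo1. Dennd5b, a regulator of Rab proteins, stood at 6.47 and 6.64 CPM in the control pools and 18 and 11.9 CPM in the KOKI pools. St8sia6, a sialic acid transferase, stood at 9.62 and 8.53 CPM in the control pools and 3.95 and 4.53 CPM in the KOKI pools. In both the matched pool was farther from the controls than the RAG2-only pool.

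In the RAG2-only pool edgeR called 1 of 20204 genes (0.00495%), Fcrl5. This gene did not pass the count filter of the 4 femoral libraries in 2 groups, and it entered the test over all 10 libraries through the splenic cultures and the RAG2-only pool, where it is high. In the same pool 2147 genes had an unadjusted p under 0.05 and DESeq2 called 221. Fcrl5, a receptor of the Fc receptor-like family that is known from B cells, lies at chr3:87435773-87500678 and had 0 and 0 counts in the controls and 5 and 20 in the KOKI pools, that is 0.244 and 0.944 CPM in the KOKI pools. Its mean in the KOKI pools was at least 12.3-fold higher than the 3 counts allowed for both controls (edgeR adjusted p = 0.0192 in the RAG2-only pool), and without control replicate 1 the adjusted p was 0.0767, within a range of 1.99e-10 to 0.445 over all alternatives. The splenic cultures held 2117 and 2172 counts of Fcrl5 in wild-type mice with LPS and 2054 and 1468 in KOKI mice. Of 10 mature B cell genes tested 7 had both KOKI pools above both controls and 0 below, against 25.3% and 24.2% of all genes. The 7 were Ciita, Cd74, H2-Aa, H2-Ab1 and H2-Eb1 of the class II pathway, together with Cd37 and Tnfrsf13c. Class II genes are also made by dendritic cells, and Cd22, Cd40 and Ighd had overlapping groups. The sums of this list were 421 and 464 CPM in the control pools and 623 and 612 CPM in the KOKI pools, with Cd74 and H2-Aa the largest members. Among the defining markers of mature B cells Ms4a1 and Cr2 had 0 counts in the RAG2-only pool. Tnfrsf13c, a receptor for the B cell survival factor BAFF, had 35 and 35 counts in the controls and 34 and 52 in the KOKI pools. The part of these markers in the value of Fcrl5 was not tested. The next genes by p were Bglap, AA465934, Ifi44l and Rab26os, none of them called.

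The KOKI pools, which differ in the gamma c label, were compared with 1 library a side, and 0 calls do not show that they are alike. The edgeR test called 0 of 20204 genes between them (0%), 229 had an unadjusted p under 0.05, and DESeq2 called 0. Genes with the smallest p included Hspa1b, at 32.2 CPM in the matched and 8.31 CPM in the RAG2-only pool, BC094916, at 7.66 and 2.83 CPM, Gimap4, a GTPase of lymphocytes, at 1.76 and 0.331 CPM, and Sfn at 0.683 and 3.31 CPM. Il2rg differed by 0.22 ± 0.30 (log2, SE) from the matched to the RAG2-only pool, with an edgeR adjusted p of 1. With 1 library a side, the spread comes from the other groups. Over all 10 libraries, the KOKI effect differed between the femoral pools and the splenic cultures for 171 of 20204 genes (0.846%), by an interaction term in edgeR.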

How the data were processed

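RNA-seq libraries were made with the TruSeq Stranded Total RNA kit, per the labels' protocols, with STAR 2.4.0a and featureCounts (Subread 1.4.6-p1) on mm10 named in the submitters' processing notes. The strand setting is, like the handling of reads with several matches, not given in the sources used here. The authors deposited raw counts per gene for 46959 genes, and 100 spike-in and phiX entries (1 to 17 counts per library) were left out. GENCODE M21 matched 44217 genes (94.16%). Counts were tested with edgeR 4.0.16 (TMM, filterByExpr with a minimum count of 10 and total of 15, quasi-likelihood F test, Benjamini-Hochberg adjusted p under 0.05): both KOKI pools against both controls over the 4 femoral libraries, and each pool over all 10 libraries in 6 groups. CPM and sums were computed from the deposited counts. DESeq2 1.42.0, other normalisation, filters, omitted libraries and a gene length offset (loess, span 0.3, chosen after seeing the data) were alternatives. A count of 0 was taken to allow 3 counts over a group, for counting error only. With both KOKI pools together, p-values rest on the spread between pools, which includes the gamma c difference between the KOKI pools. In the tests over all 10 libraries the spread also came from the splenic cultures. Named genes were called genes, the 10 smallest p per comparison and the 2 smallest p per list; further examples were chosen after their values were seen, and a few genes are not reported here. Members and lists were chosen with earlier results of these data known. Scripts were tested on simulated data.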

Additional observations from a re-analysis of the deposited data

Results flagged for a closer look

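Of the genes named above, 82 passed the expression filter in the spleen, and for 11 of these the KOKI effect in the femoral pools differed from that in splenic cultures with LPS (KOKI against wild-type). The difference, femur minus spleen on the log2 scale, was tested as an interaction in edgeR over all 10 libraries, with Benjamini-Hochberg adjustment over 20204 genes, of which 171 (0.846%) were called. The treatment label of the splenic KOKI cultures names SAHA as well as LPS, while their titles name LPS.

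Among interferon-inducible genes, Oasl2 differed by 10.27 ± 0.90 (SE, adjusted p = 0.00107), at -0.90 in femur and 0 counts in both splenic KOKI cultures, against 222 and 377 counts in the wild-type ones. AI607873 differed by 7.51 ± 1.12 (adjusted p = 0.0148), also with 0 counts in both splenic KOKI cultures, against 42 and 35. Fitted values against 0 counts depend on the prior count and are no bound. Rsad2 differed by 3.36 ± 0.53 (adjusted p = 0.0164), at -1.05 in femur and -4.42 in spleen.

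A further 4 genes were higher in the femoral KOKI pools and lower or nearly level in the splenic ones. Fcrl5 differed by 6.46 (adjusted p = 0.00656), Rab26os by 3.31 (adjusted p = 0.00656), Cox6a2 by 3.12 (adjusted p = 0.0188) and Nr4a1 by 1.74 (adjusted p = 0.0324). The beta globin gene Hbb-bt differed by 2.70 (adjusted p = 0.0462), at 0.44 in femur and -2.26 in spleen.

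Opposite in sign were Mrc1 (-2.01, adjusted p = 0.0478), Mki67 (-1.96, adjusted p = 0.0477) and St8sia6 (-1.47, adjusted p = 0.0145), each lower in the femoral KOKI pools and higher in the splenic KOKI cultures.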

How the results depend on the processing

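The limits are 2 pools a side, 1 library per KOKI genotype, a control pair that disagrees and a length trend shared by both KOKI pools. With both KOKI pools, the 5 calls became 0 with DESeq2's size factors in edgeR, 0 with a minimum count of 30, 0 with all 10 libraries, 0 with the length offset (added after seeing the data), 662 with no filter on low counts, 688 with DESeq2 and 237 among protein-coding genes outside the immunoglobulin loci, and 13 to 3456 when 1 library was left out. In the matched pool the 0 calls became 368 with no filter, 25 with DESeq2, 1 among protein-coding genes, 1 with the femoral libraries alone, and 0 to 19 without 1 control. In the RAG2-only pool the 1 call became 684, 221, 4 and 2 under the same settings, and 0 to 123 without 1 control. Between the KOKI pools the 0 calls became 54 with no filter. The 171 genes that differed between femur and spleen became 543 with DESeq2. Sums of V, D and J segments kept their direction and missed the threshold in every alternative run on them, which did not include the length offset.

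Replicate numbers in the labels' descriptions are shared by the groups, but nothing says that they mark the same animals or day. The log2 differences between the numbers correlated at 0.109 across 16624 genes. With the replicate block 869 genes were called, 579 higher and 290 lower, and the V, D and J sums had log2 fold changes of -0.63, 1.16 and -0.44.

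Some single genes changed sign. With 1 library left out, log2 fold changes ran from -0.16 to 0.19 for Csf1r, -0.012 to 0.19 for Cd68, -0.20 to 0.57 for Blnk, -1.26 to 0.43 for Cd5l, -0.54 to 0.20 for Ebf1, -0.45 to 0.080 for Stat2, -0.15 to 0.23 for B2m, -0.082 to 0.018 for Ighj1, -0.025 to 0.59 for Il2rg, -0.11 to 0.15 for Irf9 and -0.0079 to 0.44 for Rag2. With all 10 libraries Csf1r had -0.0052. With the length offset B2m had -0.48, Hbb-bt -0.16, Cd68 -0.24, Cd79b -0.24, Ebf1 0.048, Ighd -0.019, mt-Co2 -0.20 and mt-Co3 -0.26. The cause was not tested.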
